A study of Mus musculus with 4 samples.

Results

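Mcpt8 lies in a compact cluster of serine protease genes on mouse chromosome 14 that also holds the granzymes B to G and N, cathepsin G and the mast cell chymases, and its expression in ErbB2-driven mouse mammary tumour cells after exposure to GSK-126 was set beside that of its neighbours. The set held 10 listed genes: Mcpt8, Gzmb, Gzmc, Gzmd, Gzme, Gzmf, Gzmg, Gzmn, Ctsg and Cma1. The set was selected on the Mcpt8 values, which were higher with GSK-126 on these same arrays, so the Mcpt8 values below are a description without a test, and the other genes were taken for their place in the cluster. A probe set naming only that gene was found for 9 of the 10, out of 22180 genes so measured, and Gzme was represented only by a probe set that the platform annotation gives to Gzme and Gzmd together.

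The cells were cultured from mammary tumours of the MMTV-NIC mouse model (strain FVB, females), where a mammary tumour virus promoter drives activated ErbB2 and, from the same transcript, Cre recombinase in the mammary epithelium. The treated group received 2 µM GSK-126 for 96 h (n = 2 arrays), and the control group received the vehicle DMSO for 96 h (n = 2 arrays). All arms therefore carried the transgene and grew in the same serum, EGF, hydrocortisone, insulin and pituitary extract. The labels do not say whether the replicates are separate cultures or lines, so p-values reflect array-to-array spread, which may be only technical.

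The proteases of this cluster are made as inactive precursors, stored in the granules of blood cells and released when those cells are activated. Granzymes serve cytotoxic T cells and natural killer cells, chymases serve mast cells, cathepsin G serves neutrophils, and Mcpt8, in spite of its name, is made in mice mainly by basophils and is widely used as their marker. GSK-126 inhibits EZH2, the enzyme that places the repressive mark H3K27me3. Neither that mark nor protein was measured here.

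Array medians over all probe sets were 4.79 and 4.78 with GSK-126 and 4.74 and 4.73 with DMSO, on the log2 scale. Correlations between arrays lay between 0.981 and 0.988, and the treated arrays resembled each other (0.981) no more than either resembled the controls (0.981 to 0.987). The epithelial markers Krt8, Krt18, Epcam, Cdh1 and Erbb2 were all above the 40th percentile of gene levels (4.77). None of the 5 passed the test, against 0.433% of all genes. The pan-leukocyte gene Ptprc was below that percentile on every array, at 3.44 and 3.58 with GSK-126 and 3.67 and 3.37 with DMSO. A gene is called dim below where its group mean lies under this percentile, and the size of a change between dim values is uncertain.

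The start-site sequences of 4 neighbours are shown because they cover Mcpt8, the gene pair read by the second probe set that was higher with GSK-126, and Ctsg, which the reference places between them. Each is a RefSeq window of the C57BL/6J genome, build GRCm38.p6, from 250 bases before to 50 after the annotated start, while the cells are of FVB origin. Capitals mark the RUNX hexamer (TGTGGT, or ACCACA on the other strand) and the longest run that the Mcpt8 and Gzme windows share (GGTTTAAAA).
Mcpt8 (chr14:56085148-56085447, minus strand): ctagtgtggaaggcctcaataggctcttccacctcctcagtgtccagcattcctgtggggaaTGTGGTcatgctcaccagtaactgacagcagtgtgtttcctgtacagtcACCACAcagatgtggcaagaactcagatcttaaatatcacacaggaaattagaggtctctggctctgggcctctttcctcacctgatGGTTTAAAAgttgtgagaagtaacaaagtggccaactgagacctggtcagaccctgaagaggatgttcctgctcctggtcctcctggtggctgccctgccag
Gzme (chr14:56120576-56120875, minus strand): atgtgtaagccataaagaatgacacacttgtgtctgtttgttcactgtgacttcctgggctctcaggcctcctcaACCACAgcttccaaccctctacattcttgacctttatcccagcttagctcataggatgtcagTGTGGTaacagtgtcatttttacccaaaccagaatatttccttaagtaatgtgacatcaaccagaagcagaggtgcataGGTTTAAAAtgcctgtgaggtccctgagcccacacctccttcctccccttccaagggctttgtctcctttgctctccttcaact
Gzmd (chr14:56132544-56132843, minus strand): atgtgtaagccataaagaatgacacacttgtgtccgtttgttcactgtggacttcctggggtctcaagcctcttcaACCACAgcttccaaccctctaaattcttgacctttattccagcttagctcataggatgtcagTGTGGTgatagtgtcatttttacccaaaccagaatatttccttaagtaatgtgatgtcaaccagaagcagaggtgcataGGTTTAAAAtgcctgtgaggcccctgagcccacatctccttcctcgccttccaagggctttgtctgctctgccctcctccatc
Ctsg (chr14:56102525-56102824, minus strand): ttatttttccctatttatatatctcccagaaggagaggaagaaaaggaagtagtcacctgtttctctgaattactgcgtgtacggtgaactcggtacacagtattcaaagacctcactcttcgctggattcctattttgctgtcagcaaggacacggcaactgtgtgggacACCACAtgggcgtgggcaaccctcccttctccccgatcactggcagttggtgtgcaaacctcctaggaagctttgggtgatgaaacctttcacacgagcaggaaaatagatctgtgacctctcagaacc

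The Gzme and Gzmd windows were 93.4% identical over 301 aligned positions, whereas the Mcpt8 and Gzme windows were 50.7% identical. The windows of Gzmc, Gzmg and Gzmf were 83.8%, 80.4% and 77.3% identical to that of Gzme. Those of Ctsg (48.6%) and Gzmb (48.3%) were no closer to Gzme than Mcpt8 was. The granzymes C to G share much of their start-site sequence, and their windows are not independent examples of any motif.

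The 9-base run GGTTTAAAA began 52 bases before the start of Mcpt8, 34 before that of Gzme and 33 before that of Gzmd. It was also present on the same strand for Gzmg (49 bases before) and Gzmf (54 bases before), and on the opposite strand for Mcpt9. It occurred on either strand in 0.347% of the 32851 windows in the table. Shared runs of this length were common among these windows, since Mcpt8 shared 10 bases with Mcpt1 and with Gzmb, and 9 with Cma1. The run was picked after the sequences and the expression values had been seen. The Gzmg, Gzmf and Mcpt9 probe sets, and the one naming Gzmd alone, stayed dim in both groups.

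The RUNX hexamer matched 9 of the 10 member windows, all but Gzmn, against 16.8% of all windows. The other motifs were likewise searched on both strands. The GAS element (TTCNNNGAA) was found for Ctsg and Gzmb, against 8.30% of all windows, and the AP-1 site (TGANTCA) for Gzmb, against 7.81%. Neither the interferon response element core (ISRE, 3.44% of all windows) nor the GATA hexamer (AGATAA, 11.2%) matched a member. The ETS hexamer (AGGAAG) matched 7 members, against 35.4% of windows, and the E-box (CANNTG), which is its own reverse complement, matched 8, against 72.3%. These are letter matches, and binding was not measured.

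Mcpt8 was measured at 9.64 and 9.91 on the GSK-126 arrays and at 7.11 and 6.75 on the DMSO arrays. Its means were 9.77 ± 0.19 with GSK-126 and 6.93 ± 0.25 with DMSO (SD, n = 2 each), a difference of 2.84 (SE 0.14) on the log2 scale or 7.17-fold. Both treated arrays lay above both controls, and Mcpt8 was not dim in either group. In these bulk samples, more cells making a transcript and more of it per cell cannot be told apart.

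The probe set annotated to both Gzme and Gzmd was the other high feature of the cluster. Granzymes D and E are cytotoxic granule proteases found in rodents, made by activated T cells and by natural killer cells of the pregnant uterus. This probe set was at 8.09 and 8.72 with GSK-126, against 6.34 and 6.12 with DMSO. The groups did not overlap, and neither was dim. The difference was 2.18 (SE 0.23, 95% interval 1.58 to 2.77) on the log2 scale, or 4.53-fold.

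How this probe set fared in the test depended on what was tested beside it. In limma over every probe set, the setting chosen for features without a gene of their own, its adjusted p was 0.385, and 0 of 41345 probe sets (0%) passed at 0.05, with 7.06% at an unadjusted p under 0.05. Its own unadjusted p was 0.000233. In a fit of each gene's single-symbol probe set plus all 1814 probe sets with several symbols, added after the data were seen, its adjusted p was 0.0272 in limma, and 39 of 23994 features passed (0.163%). In that fit the call was lost without GSK-126 replicate 2 (change 1.86, adjusted p = 0.105), without DMSO replicate 1 (2.29, 0.362), without DMSO replicate 2 (2.07, 0.341) and without the intensity trend (adjusted p = 0.246). The call was also lost there with the replicate number as a block (limma adjusted p = 0.159). The change of the Gzme/Gzmd probe set was the 4th largest increase of the 41345 probe sets, and that of Mcpt8 was the largest.

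Which gene of the pair carried the signal cannot be told from this probe set. The probe set naming Gzmd alone was dim on every array, at 2.47 and 2.67 with GSK-126 and 2.73 and 2.84 with DMSO. Its change was -0.22 (95% interval -0.63 to 0.19, limma adjusted p = 0.723), opposite in sign to that of the shared probe set. Cross-hybridisation with related granzymes was not tested, since probe sequences were not used here.

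**Figure D1:**
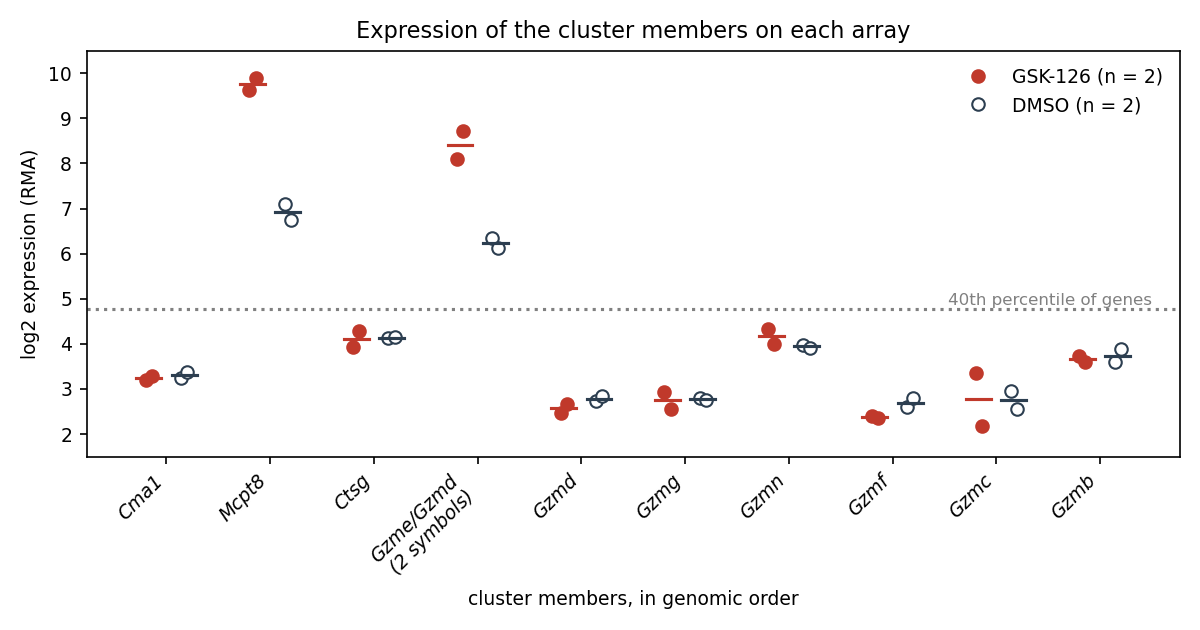
Log2 expression of the cluster members in genomic order on each array, with GSK-126 as filled and DMSO as open circles, horizontal bars at the group means (n = 2 each) and a dotted line at the 40th percentile of gene levels (4.77). Mcpt8 and the Gzme/Gzmd probe set have both GSK-126 values above both DMSO values and above the line, while the other 8 members lie below it in both groups.

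No other member with a probe set of its own passed the test. In limma with each gene represented once, 0.433% of the 22180 genes passed in either direction (0.261% higher and 0.171% lower), and 0 of the 8 members besides Mcpt8 did, with 0 of the 8 at an unadjusted p under 0.05, against 10.6% of all genes. Their changes ran from -0.32 for Gzmf to 0.22 for Gzmn, with a median of -0.04, against a median of -0.0077 over all genes. All 8 were dim in both groups, with single values between 2.19 and 4.33. The highest upper limit of their 95% intervals was 0.85, for Gzmc, equal to 1.80-fold. In the fit of every probe set, which gave the Gzme/Gzmd interval of 1.58 to 2.77, the highest upper limit of the 8 was 1.11.

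Ctsg encodes cathepsin G, a chymotrypsin-like protease of neutrophil granules, and is the next gene after Mcpt8. It was at 3.92 and 4.29 with GSK-126, against 4.13 and 4.14 with DMSO. The DMSO values lay between the treated values, and the change was -0.03 (95% interval -0.45 to 0.40, limma adjusted p = 0.982). Cma1, which encodes a mast cell protease of connective tissue and closes the cluster on the other side of Mcpt8, was at 3.20 and 3.30 with GSK-126 and 3.25 and 3.37 with DMSO. Its groups overlapped as well (change -0.06, 95% interval -0.45 to 0.33).

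Gzmb encodes granzyme B, which cleaves caspases and Bid in target cells and triggers their apoptosis. It lies at the far end of the cluster and was at 3.72 and 3.61 with GSK-126, against 3.59 and 3.89 with DMSO. The groups overlapped, and the change was -0.08 (95% interval -0.49 to 0.34). Gzmc, a second cytotoxic granzyme, had the widest spread of the members, at 3.36 and 2.19 with GSK-126 and 2.95 and 2.56 with DMSO. Its 2 treated arrays bracketed both controls, so its change of 0.02 (SE 0.36) carries little information.

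Of the granzymes nearest to the Gzme and Gzmd genes, Gzmg was at 2.93 and 2.56 with GSK-126, against 2.79 and 2.75 with DMSO (change -0.03, 95% interval -0.47 to 0.42). Gzmf, another granzyme of the rodent subgroup, was lower on both treated arrays, at 2.40 and 2.35 with GSK-126 and 2.59 and 2.79 with DMSO. Its change of -0.32 did not pass (limma adjusted p = 0.576). Gzmn, a granzyme described in mouse testis, was higher on both treated arrays, at 4.33 and 4.0 with GSK-126 and 3.98 and 3.91 with DMSO. Its change of 0.22 did not pass either (limma adjusted p = 0.727).

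Among the 8 members, groups that did not overlap occurred once upward, for Gzmn, and for 2 genes downward, Gzmd and Gzmf. Over all genes, 18.2% had non-overlapping groups upward and 21.8% downward. The members' shares are those of a small set of dim genes.

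The remaining annotated genes of the cluster were also examined, bringing the genes besides Mcpt8 with a probe set of their own to 14. None of the 14 passed in limma, 0 of them reached an unadjusted p under 0.05 (all genes: 0.433% and 10.6%), and the highest upper limit stayed at 0.85. The lowest p was that of Mcpt1, a chymase of mucosal mast cells, at 3.15 and 2.95 with GSK-126 and 3.51 and 3.39 with DMSO (change -0.40, limma adjusted p = 0.482). Mcpt4, the immediate neighbour of Mcpt8 on the side of the chymases and itself a chymase of connective tissue mast cells, was dim at 2.45 and 2.42 with GSK-126 and 2.60 and 2.74 with DMSO. Its change was -0.23 (95% interval -0.63 to 0.16).

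The chymase gene Cma2 and the pseudogene Mcpt-ps1 were the only ones of the 14 that were not dim in both groups. Cma2 was at 5.18 and 4.89 with GSK-126, against 5.32 and 5.21 with DMSO, a change of -0.22 (95% interval -0.59 to 0.14). Mcpt-ps1 was at 5.26 and 5.08 with GSK-126, against 5.38 and 4.81 with DMSO, a change of 0.07 (95% interval -0.41 to 0.55). The mast cell proteases Mcpt2 and Mcpt9 changed by -0.09 and 0.02, with groups that overlapped.

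The 3 nearest named genes on each side of the cluster did not pass in limma (all genes: 0.433%). On the chymase side these were Sdr39u1 (-0.26), Khnyn (-0.12), which encodes a cofactor of the antiviral protein ZAP, and Cbln3 (-0.02). On the granzyme side, Atp12a, a proton and potassium pump, was at 7.15 and 6.95 with GSK-126 and 6.74 and 6.80 with DMSO. Both treated arrays were higher, with a change of 0.28 (95% interval 0.02 to 0.54, limma adjusted p = 0.438). Beyond it, Rnf17 changed by 0.21, in the dim range, and the centriole gene Cenpj by -0.08.

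**Figure D2:**
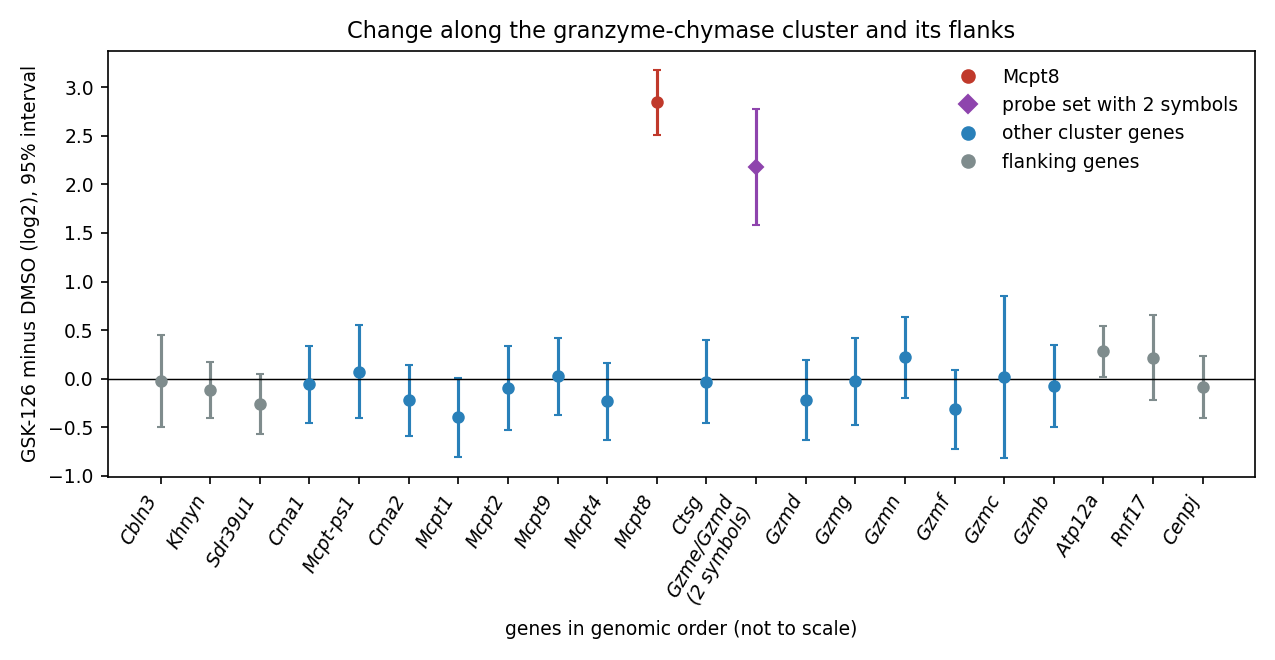
Change in expression, GSK-126 minus DMSO on the log2 scale, for genes in genomic order with 95% intervals from limma (n = 2 arrays a group); the diamond is the probe set with 2 symbols, drawn at the place of Gzme and taken from the fit of every probe set. Mcpt8, for whose rise the set was selected and whose interval is no test, is plotted at 2.84, the Gzme/Gzmd probe set at 2.18 and Ctsg, placed between them, at -0.03.

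Likeness to Mcpt8 was measured as the root mean square distance between array values, over the 4 arrays, after subtracting each feature's DMSO mean. The Gzme/Gzmd probe set was at a distance of 0.488, and 0 of the named genes, or of all other probe sets, were closer. The 5 named genes nearest to Mcpt8 were Iigp1 (0.618), an interferon-inducible GTPase, Dgkk (0.822), a diacylglycerol kinase, Bex1 (0.852), Mmp13 (0.854), a collagenase, and Ly6c2 (0.910). The median gene was at 2.03. As Mcpt8 was chosen for a large rise, nearness to it follows largely from the size of a gene's own increase, and this ranking describes 4 arrays only.

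Values of these features differed between the treated arrays, and also between the DMSO arrays, as for Mcpt8 at 7.11 and 6.75. The Gzme/Gzmd probe set was higher on GSK-126 replicate 2 (8.72) than on replicate 1 (8.09). For Mcpt8 these arrays gave 9.91 and 9.64. Iigp1 ran the other way, with 7.18 on replicate 2 and 7.40 on replicate 1, as did Mmp13, with 5.68 and 5.74.

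**Figure D3:**
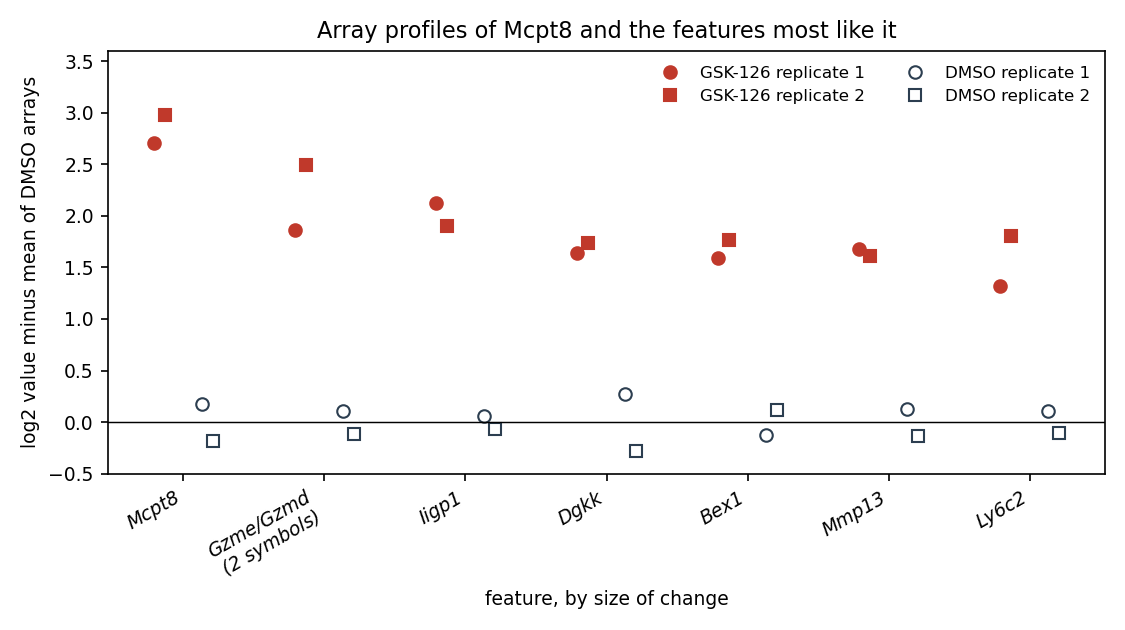
Values of Mcpt8, the Gzme/Gzmd probe set and the 5 nearest named genes on each array, as log2 value minus the feature's DMSO mean, with GSK-126 filled and DMSO open. Every GSK-126 value lies above every DMSO value of its own feature, and of these features the Gzme/Gzmd probe set has the widest gap between treated arrays (8.09 and 8.72 before subtraction).

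The granzymes encoded elsewhere did not pass. Gzma, a tryptase-like granzyme of cytotoxic cells, changed by 0.14, Gzmk by 0.11 and Gzmm by -0.06 (limma adjusted p between 0.849 and 0.942). Partners that store, activate or release granzymes numbered 10, of which 0 passed, against 0.433% of all genes, with a median change of 0.045. Ctsc, the dipeptidyl peptidase that removes the activating dipeptide of granzymes and chymases, was lower on both treated arrays, at 8.92 and 8.87 with GSK-126 and 9.14 and 9.17 with DMSO. Its change of -0.26 reached an unadjusted p of 0.0146 but not the threshold (limma adjusted p = 0.341). The heparin-modifying enzyme gene Ndst2 (-0.25) and the granule priming factor gene Unc13d (0.14) had the next lowest p. The pore-forming protein gene Prf1, through which granzymes enter target cells, was at 5.31 and 5.07 with GSK-126 and 5.48 and 4.86 with DMSO, with groups that overlapped.

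Inhibitors of such proteases were measured for 8 of 9 listed genes, and 0 passed, against 0.433% of all genes. Their changes ran from 0.02 to 1.10 (median 0.14). The mean was higher with GSK-126 for 8 of the 8, against 48% of all genes, but for 5 of the 8, against 36.5%, once each array was centred on its median. Slpi, which inhibits cathepsin G and neutrophil elastase, was at 8.46 and 8.36 with GSK-126, against 8.0 and 7.93 with DMSO (change 0.45, limma adjusted p = 0.132). Serpina3n, which inhibits granzyme B in mice, was at 6.03 and 6.91 with GSK-126 and 5.33 and 5.40 with DMSO (change 1.10, limma adjusted p = 0.194). Serpinb9b, a relative of the granzyme B inhibitor Serpinb9, changed by 0.51 (limma adjusted p = 0.239). These 3 had an unadjusted p under 0.05, which held for 10.6% of all genes, while Serpinb9 itself changed by 0.04.

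Markers of the blood cells that normally make these proteases were set beside the Mcpt8 values. Of 15 basophil and mast cell markers, 12 were dim in both groups and 0 passed, against 0.433% of all genes. Their median change was 0.07. Their summed level, on the linear scale, was 895 and 803 with GSK-126 and 812 and 845 with DMSO, of which Kit made up 63.1% to 65.4%. Without Kit the sums were 323 and 293 with GSK-126 and 299 and 292 with DMSO, and the groups overlapped with and without it. The sum without Kit was added after the data were seen. The high-affinity IgE receptor genes Fcer1a (2.82 and 2.68 with GSK-126, 2.41 and 2.65 with DMSO) and Ms4a2 (3.27 and 3.78 with GSK-126, 3.43 and 3.45 with DMSO) were dim on every array. Cpa3, a carboxypeptidase stored with mast cell proteases, was dim but higher on both treated arrays, at 2.99 and 3.48 with GSK-126 and 2.80 and 2.58 with DMSO (change 0.54, limma adjusted p = 0.437). Il4, also dim, was at 4.09 and 4.16 with GSK-126 and 3.82 and 3.97 with DMSO (change 0.23, limma adjusted p = 0.674). Changes over the list ran from -0.18 to 0.54. The 3 markers that were not dim were Kit, Il3ra and Mitf, which changed by 0.02, 0.03 and 0.10.

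Of 17 T and natural killer cell markers, 14 were dim in both groups and 0 passed, against 0.433% of all genes. Their median change was 0.04. Their summed linear level was 379 and 357 with GSK-126 and 365 and 344 with DMSO. Klrd1, a receptor subunit of natural killer cells, had the lowest p (change 0.41, dim in both groups, limma adjusted p = 0.458), followed by Cd3g (0.40) and Eomes (0.21). Which cells carried the Gzme/Gzmd and Mcpt8 signals was not tested.

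Of 10 neutrophil granule markers, 4 were dim in both groups and 1 passed, against 0.433% of all genes. It was the calcium-binding protein gene S100a8 (change 0.74, limma adjusted p = 0.0297). S100a8 was at 9.46 and 9.60 with GSK-126, against 8.85 and 8.75 with DMSO. Its partner S100a9, dim in DMSO, changed by 0.63 (adjusted p = 0.275), and the granule enzyme genes Mpo, Elane and Prtn3 did not pass. Of 8 macrophage markers 1 passed, the lysosomal membrane protein gene Cd68 (change 1.00, limma adjusted p = 0.0100), while 5 were dim in both groups. Both calls were lost whichever array was left out (adjusted p from 0.150 to 0.473 for S100a8 and from 0.110 to 0.233 for Cd68 in limma), with changes of 0.66 to 0.81 and 0.94 to 1.06. The summed linear level of the neutrophil markers was 6014 and 5955 with GSK-126 and 5969 and 6794 with DMSO, of which the lactoferrin gene Ltf, also a milk gene, made up 83.4% to 90.7%. Without Ltf the sums were higher with GSK-126, at 921 and 986, against 645 and 633 with DMSO. Leaving out Ltf was decided after the data were seen. Most of each sum without Ltf was S100a8, the gene that passed. The macrophage markers summed to 2242 and 2357 with GSK-126 and 1990 and 1817 with DMSO. Most of each macrophage sum came from Cd14 and Cd68. Cd14 was at 10.61 and 10.73 with GSK-126 and 10.64 and 10.49 with DMSO, with groups that overlapped. Cd68 was at 9.16 and 9.12 with GSK-126, against 8.20 and 8.08 with DMSO. No macrophage sum was made without Cd68. Of the other macrophage markers, Csf1r changed by 0.12, Mrc1 by 0.02 and Lyz2 by 0.005. Ptprc changed by -0.01, Itgam by -0.15 and Adgre1 by -0.16, and the median over the list was 0.011. The part of cells other than epithelium in the Mcpt8 and Gzme/Gzmd values was not tested.

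**Figure D4:**
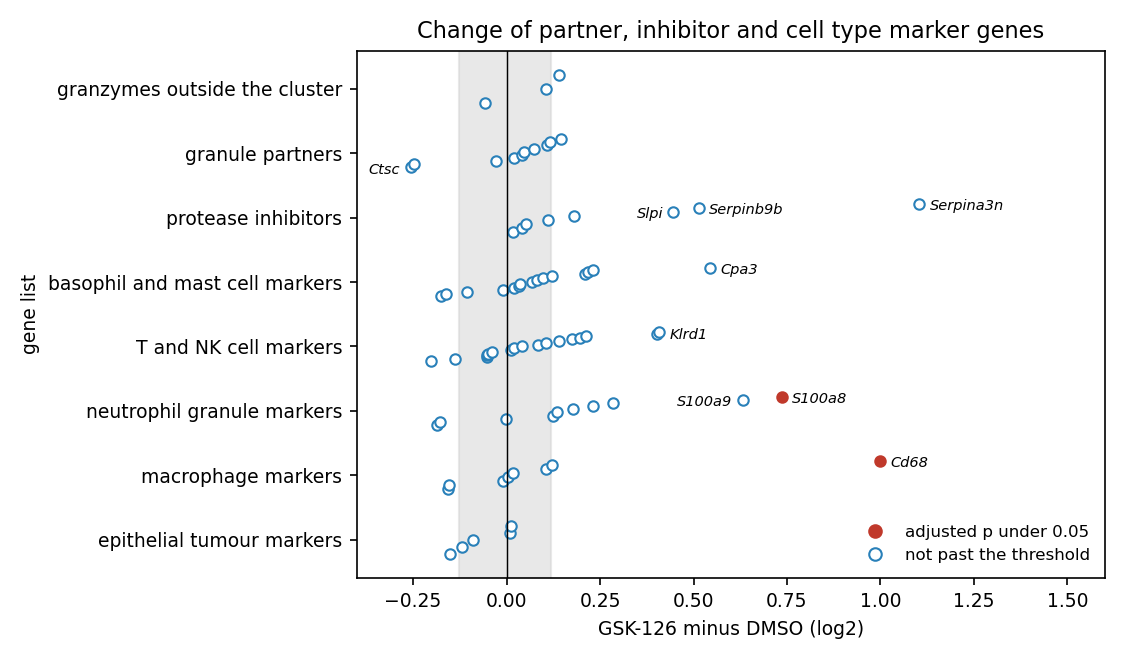
Change of each listed gene, GSK-126 minus DMSO on the log2 scale, by gene list, with filled points for genes past the threshold, names for genes with an unadjusted p under 0.05 and a grey band for the interquartile range of all genes (-0.13 to 0.12). S100a8 (0.74) and Cd68 (1.00) are the filled points, and no basophil, mast cell, T or natural killer cell marker is filled. Over all genes, 0.433% passed the threshold.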

How the data were processed

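Total RNA was hybridised to single-channel Affymetrix mouse arrays. The deposited values are log2 expression values that the authors made in Expression Console as a core-exon robust multi-array average (RMA), per the labels. Affymetrix Power Tools is named, with no version, per the submitters' processing notes. The genome build and the centring are not given in the sources used here. Of 41345 probe sets, 23521 carried 1 symbol, 1814 several and 16010 none in the platform annotation.

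Each of 22180 genes was represented by its single-symbol probe set of highest mean; each member so measured had only 1 such probe set. Changes (GSK-126 minus DMSO) came from limma 3.58.1, run in R 4.3.3 with an intensity trend, two-sided moderated tests and Benjamini-Hochberg adjustment over all features, and 0.05 was the threshold. Residual degrees of freedom were 2, to which the prior added 5.57. The number of arrays limits the precision.

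Gene order came from the RefSeq table of assembly GRCm38.p6, in which 2 genes first listed as flanking (Stxbp6, Nova1) lie on another chromosome and were passed over. Mcpt10 and Serpina3g had no single-symbol probe set under those names. Promoter windows came from RefSeq, and identities from global alignment in Biopython 1.88. The members and lists were chosen with earlier results of these data known. Genes named were all members, the 3 nearest on each flank, those past the threshold or with the 3 smallest p in each list, the 5 most like Mcpt8, and a few others given for their role. Alternatives were the prior, dim genes, probe sets, scaling, replicate block and each array left out.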

Additional observations from a re-analysis of the deposited data

How the results depend on the processing

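The Mcpt8 difference stayed between 2.66 and 3.02 under the alternatives run, all within the replicate spread, and 0 of the other 8 members passed under each alternative that tested them. None of the 8 was left to test without dim genes. The Gzme/Gzmd probe set kept its direction in all fits (1.86 to 2.50 with 1 array left out, adjusted p 0.143 to 0.911 in limma over every probe set). It passed only in the fit of genes plus probe sets with several symbols (2.18, adjusted p = 0.0272), added after the data were seen, where leaving out 1 array gave adjusted p of 0.0124 to 0.362 and the replicate block 0.159. Prior degrees of freedom were 4.73 there and 2.97 over every probe set.

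The count of genes past the threshold, 96, moved to 0 in limma without the intensity trend (1964 at an unadjusted p under 0.05) and to 0 over every probe set (2921), to 149 without dim genes, to 10 with the replicate number as a block, to 39 with several-symbol probe sets added, and to between 0 and 4 with 1 array left out. Same-numbered arrays did not deviate together over genes (correlation of deviations from group means -0.0255). With so few arrays a group, this value cannot show whether same-numbered arrays shared a culture or line, which the labels do not say. Small changes turned sign: Gzmc was -0.036 with centred arrays. With 1 array left out, Gzmc ran from -0.57 to 0.60, Gzmb from -0.22 to 0.073, Gzmg from -0.21 to 0.16, Ctsg from -0.21 to 0.16 and Cma1 from -0.12 to 0.00036. The cause was not tested. Dim signal limits what can be said of the 8 members.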
